A study of Mus musculus with 26 samples.

Results

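The D-type cyclins (Ccnd1, Ccnd2 and Ccnd3) and the inhibitors of cyclin-dependent kinases (CDKs) of the Cip/Kip family (Cdkn1a, Cdkn1b and Cdkn1c) and the INK4 family (Cdkn2a, Cdkn2b, Cdkn2c and Cdkn2d) were examined in mesenchyme of the fetal mouse reproductive tract. The genes were taken by symbol from the 2 tables of RNA-seq counts, and 10 of 41442 gene rows in each table belong to them. Of the 10 genes, 8 had enough counts to be tested in both tables, and Cdkn2a and Cdkn2b did not.

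The fetal table holds 12 libraries of Gli1+ cells from the mesonephros, the tissue that carries the Wolffian and the Müllerian duct, in 4 groups of 3: XX (female) and XY (male) embryos at embryonic days E14.5 and E16.5. The uterine table holds 3 libraries of Amhr2+ cells and 3 of Gli1+ cells from the neonatal uterus, labelled E19.5. Embryos carried either Gli1-CreER or Amhr2-Cre together with a Rosa-Tomato reporter, and dams of both crosses received 1 mg of tamoxifen on E12.5 and again on E13.5. All groups thus share the reporter and the tamoxifen. Gli1-CreER is active only where Gli1, a hedgehog target gene, is transcribed and tamoxifen is present, and Amhr2-Cre only where Amhr2, the receptor gene of anti-Müllerian hormone, is or was transcribed, so that a labelled cell need not express the driver gene when it is collected. Whether animals were pooled, and what a replicate number stands for, is not given in the sources used here. The p-values therefore measure the spread between these libraries, which may be technical.

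In the textbook cell cycle, D-type cyclins accumulate when growth signals arrive and bind the kinases CDK4 and CDK6. The complexes phosphorylate the retinoblastoma protein and its relatives, which releases the E2F factors and opens the way to DNA synthesis. INK4 proteins bind CDK4 and CDK6 directly and keep cyclin D off them, while Cip/Kip proteins bind whole cyclin-CDK complexes and block above all those with CDK2. Cdkn1c is imprinted, so that only the maternal copy is read in most tissues, and its loss disturbs the growth and differentiation of many fetal tissues. The locus of Cdkn2a encodes p16INK4a and, from a start site farther upstream, p19ARF, a protein that stabilises p53.

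Start sites of the INK4 genes are shown first, because their levels range from a few counts per library (Cdkn2a and Cdkn2b) to the strongest rise with age among the 10 genes (Cdkn2c), and because the deposited list of open-chromatin peaks bears on each of them. The sequences are the 250 bases before a RefSeq start site on GRCm38.p6, in the direction of transcription. Capitals mark the GC box GGGCGG on either strand, and the E2F words TTTCCCGC, TTTCGCGC, TTTGCCGC and TTTGGCGC on either strand.
Cdkn2c, start in a peak, chr4:109666757-109667006, minus strand: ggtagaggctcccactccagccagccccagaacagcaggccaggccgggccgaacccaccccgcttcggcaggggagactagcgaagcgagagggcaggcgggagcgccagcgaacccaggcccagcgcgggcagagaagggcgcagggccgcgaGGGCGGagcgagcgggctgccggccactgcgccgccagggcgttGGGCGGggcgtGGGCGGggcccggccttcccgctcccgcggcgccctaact
Cdkn2c, start outside peaks, chr4:109665373-109665622, minus strand: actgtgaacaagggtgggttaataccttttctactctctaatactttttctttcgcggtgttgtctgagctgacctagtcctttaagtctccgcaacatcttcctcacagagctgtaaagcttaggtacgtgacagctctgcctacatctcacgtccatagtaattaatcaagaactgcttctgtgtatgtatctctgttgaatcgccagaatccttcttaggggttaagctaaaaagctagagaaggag
Cdkn2d, start in a peak, chr9:21291210-21291459, minus strand: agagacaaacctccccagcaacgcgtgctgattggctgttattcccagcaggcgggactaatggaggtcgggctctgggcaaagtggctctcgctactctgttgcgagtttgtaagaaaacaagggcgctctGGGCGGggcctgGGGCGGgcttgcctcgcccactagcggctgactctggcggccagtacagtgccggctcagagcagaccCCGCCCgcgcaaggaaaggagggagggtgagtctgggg
Cdkn2a, upstream start in a peak, chr4:89294620-89294869, minus strand: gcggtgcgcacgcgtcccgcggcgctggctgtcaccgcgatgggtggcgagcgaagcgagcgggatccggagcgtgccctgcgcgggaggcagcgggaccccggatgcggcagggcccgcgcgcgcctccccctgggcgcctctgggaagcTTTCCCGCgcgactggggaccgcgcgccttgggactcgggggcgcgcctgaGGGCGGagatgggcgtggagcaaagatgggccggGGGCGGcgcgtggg
Cdkn2b, start in a peak, chr4:89311033-89311282, minus strand: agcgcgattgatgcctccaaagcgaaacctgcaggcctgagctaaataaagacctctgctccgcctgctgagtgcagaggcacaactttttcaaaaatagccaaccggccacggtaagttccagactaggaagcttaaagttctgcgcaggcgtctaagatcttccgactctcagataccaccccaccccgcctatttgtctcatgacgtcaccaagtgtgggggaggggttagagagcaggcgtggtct

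The window of the open Cdkn2c start was 77.2% G and C with 29 CpG dinucleotides and 3 GC boxes, against 42.8%, 6 and none in the window of the other Cdkn2c start. The Cdkn2d window was 63.6% G and C, with 16 CpG and also 3 GC boxes. The upstream Cdkn2a window, before the start of p19ARF and not of p16INK4a, was the richest of the 5. It had 78.4% G and C and 40 CpG, and held 2 GC boxes and 1 E2F word. The window of the downstream Cdkn2a start, not shown, was 60% G and C with 7 CpG and held neither word. The Cdkn2b window (53.6% G and C, 12 CpG) held neither word. Over all 32851 RefSeq windows of this length the median was 52.4% G and C and 6 CpG, 32.7% held a GC box and 1.86% held 1 of the E2F words. A match is a description of the letters and not of a bound site.

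The labelled cell type was checked against marker lists. All 13 genes of a duct mesenchyme list (among them Col1a1, Pdgfra and Gli1) were tested in both tables, and their summed level was 27700 to 48400 CPM (counts scaled to library size) in fetal libraries, 22700 to 24700 CPM in uterine Amhr2+ and 41500 to 45900 CPM in uterine Gli1+ libraries. The 4 germ cell markers summed to 0.505 to 0.857 CPM in fetal XX and 1.38 to 2.53 CPM in fetal XY libraries, and to 0.475 to 0.944 CPM in uterine Amhr2+ and 5.28 to 6.53 CPM in uterine Gli1+ libraries. Among them Pou5f1 and Dppa3 had at most 3 counts in any library, while Ddx4 was lower in XX cells at both ages (-1.71 and -1.41 on the log2 scale), Dazl lower in XX cells at E16.5 (-1.73), and Ddx4 lower in Amhr2+ than in Gli1+ cells (-3.24). In fetal libraries endothelial markers summed to 64.4 to 123 CPM, gonad somatic markers to 37.4 to 68 CPM and epithelial markers to 23.1 to 53.2 CPM. Erythroid markers reached 133 CPM in 1 E14.5 XX library. Of 5 tested endothelial genes 3 were called between the sexes at E16.5, and of 5 gonad somatic genes 2. The part of these traces in the results that follow was not tested. The sorted populations were not alike in their own driver: Gli1 stood at 184 ± 0.295 and 228 ± 17 CPM (SD, n = 3) in E14.5 XX and XY cells, and at 50.7 ± 2.88 and 208 ± 13.3 CPM in E16.5 XX and XY cells. In the uterus Gli1 was at 10.5 ± 2.63 CPM in Amhr2+ and 17.9 ± 2.85 CPM in Gli1+ cells, and Amhr2 at 11.1 ± 4.31 and 4.1 ± 0.997 CPM. Library totals ran from 23382983 to 64602477 counts in the fetal and from 28709191 to 37541045 in the uterine table, so that 3 counts, taken as the detection floor, equal 0.0464 to 0.128 CPM.

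The differences that passed the test are counted first. A gene is called where the quasi-likelihood test of edgeR gave an adjusted p under 0.05 over all genes of its table. Between the sexes, 2 of the 8 tested genes were called at E14.5, 1 higher and 1 lower in XX cells, where 6.28% of all genes were called (2.59% higher, 3.69% lower). At E16.5 it was 5 of 8, 1 higher and 4 lower, beside 27.3% of all genes (13.2% higher, 14.1% lower). From E14.5 to E16.5, 7 of 8 were called in XX cells, 5 higher and 2 lower, beside 39.6% of all genes (21.0% higher, 18.6% lower). In XY cells the 4 called of 8 were all higher, beside 23.3% of all genes (13.1% higher, 10.2% lower). The sex difference itself changed with age in 3 of 8, 1 upward and 2 downward in XX, beside 10% of all genes (4.66% upward, 5.36% downward). In the uterus 3 of 8 were called, all lower in Amhr2+ than in Gli1+ cells, beside 23.9% of all genes (10.1% higher, 13.7% lower). With 8 genes these shares are coarse. Scaling by library size alone in place of TMM moved the share of all called genes that were higher from 56.1% to 41.2% in the XY age comparison and from 42.5% to 63.5% in the uterus, and reversed none of the 8 genes. The median log2 fold change over the 8 genes was -0.18 and -0.29 for XX against XY at E14.5 and E16.5, 0.38 and 0.22 for E16.5 against E14.5 in XX and XY, and -0.36 for Amhr2+ against Gli1+, beside medians of -0.01, 0.01, 0, -0.01 and 0 over all genes tested.

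**Figure D1:**
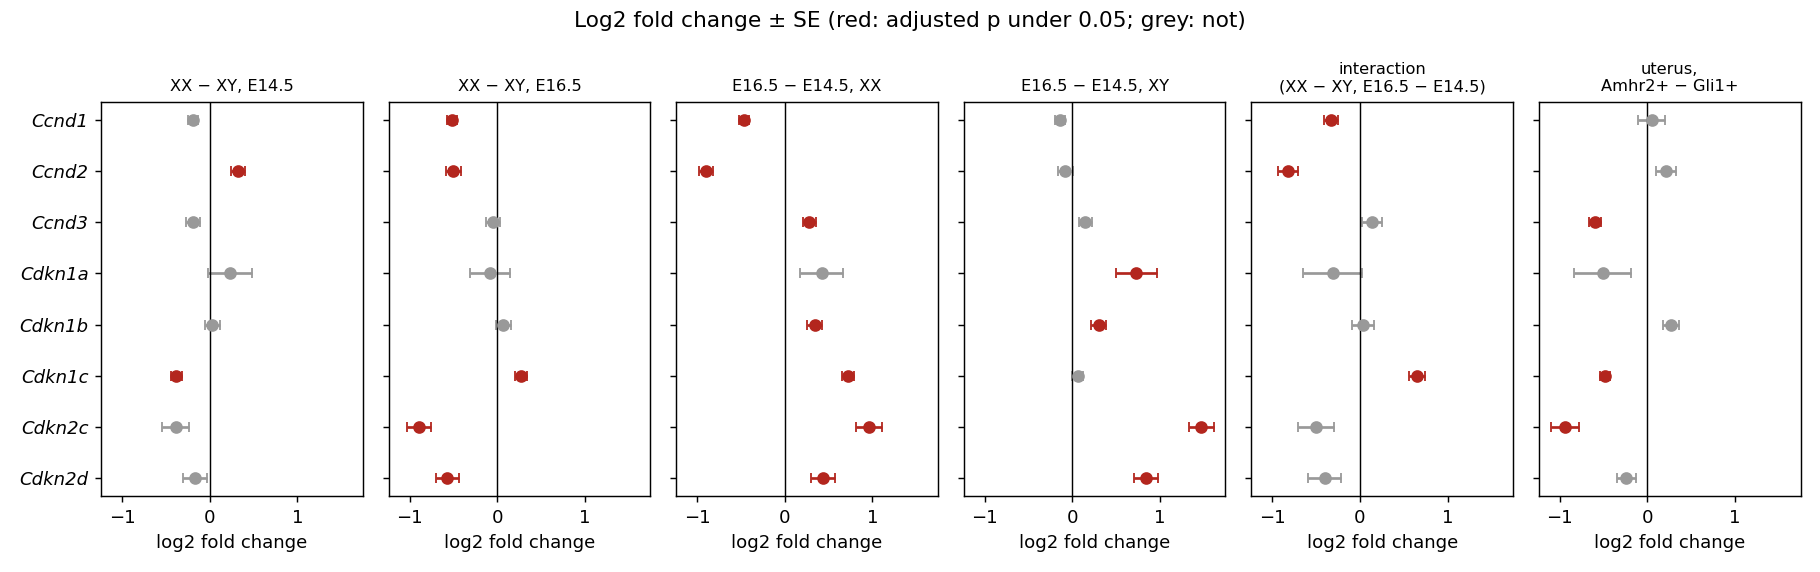
Log2 fold change ± SE (x axis) of the 8 tested genes (y axis) in each of the 6 comparisons, by edgeR; red points have an adjusted p under 0.05 and grey points do not. Ccnd2 and Cdkn1c lie on opposite sides of 0 in the E14.5 and the E16.5 sex comparison, and Cdkn2c lies farthest right in both age comparisons, at 0.96 and 1.47.

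Ccnd2, on chromosome 6 (127125162 to 127151060, minus strand, mm10), had the most CPM of the D-type cyclins in every group. It was also the highest per kb of all its annotated exons merged. That order depends on the length used (9.409 kb for Ccnd2 and 8.775 kb for Ccnd3). In E14.5 XX libraries it measured 801, 798 and 772 CPM, and in E14.5 XY libraries 645, 600 and 654 CPM. At E16.5 it measured 411, 438 and 421 CPM in XX and 504, 654 and 635 CPM in XY libraries. The XX libraries were thus the highest of the 4 groups at E14.5 and the lowest at E16.5, with no overlap between the sexes at either age, whereas the XY groups of both ages overlapped. The log2 fold change of XX against XY was 0.32 (SE 0.0829, adjusted p = 0.0306) at E14.5 and -0.5 (SE 0.0831, adjusted p = 0.000316) at E16.5. In XX cells Ccnd2 fell with age by 0.9 on the log2 scale (SE 0.0836, adjusted p = 6.86e-07), a 1.87-fold drop, and in XY cells the change was -0.08 (95% interval -0.26 to 0.09, adjusted p = 0.516). The difference between these age changes was -0.82 (SE 0.117, adjusted p = 0.000273). The E14.5 sex difference lost its call, at a nearly unchanged size (log2 fold changes of 0.28 to 0.34), when libraries were left out: its adjusted p was 0.11, 0.105 and 0.0791 without E14.5 XX replicate 1, 2 or 3, and 0.127 and 0.0762 without E14.5 XY replicate 2 or 3. The E16.5 difference, the fall in XX cells and the interaction remained called with any single library left out.

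Ccnd1 (chromosome 7, 144929931 to 144939869, minus strand), the D-type cyclin best known as a target of growth factor and Wnt signals, followed Ccnd2 in XX cells but not in the E14.5 sex comparison. It measured 99.9, 108 and 102 CPM in E14.5 XX and 120, 120 and 115 CPM in E14.5 XY libraries. At E16.5 it measured 72.8, 76.8 and 74.5 CPM in XX and 107, 112 and 103 CPM in XY libraries. The order of the groups was E14.5 XY, E16.5 XY, E14.5 XX and E16.5 XX, with overlap only between the middle groups and a clear gap below them. The XX level was lower by 0.52 on the log2 scale at E16.5 (SE 0.0567, adjusted p = 4.21e-06) and fell by 0.47 from E14.5 to E16.5 (SE 0.0569, adjusted p = 1.18e-05). At E14.5 the sex difference of -0.19 (SE 0.0567, adjusted p = 0.0589) missed the threshold although the libraries did not overlap, and it passed with DESeq2 (0.0297) and without E16.5 XY replicate 1 (0.0447). In XY cells the age change was -0.14 (SE 0.0564, adjusted p = 0.092; 0.0296 with library-size scaling alone), and the sex difference changed with age by -0.33 (SE 0.0801, adjusted p = 0.014; 0.0568 without E14.5 XX replicate 2). Oraov1 lies on the other strand over part of Ccnd1, and its counts reached 28.1% of those of Ccnd1, so reads in the overlap cannot be told apart where strand was not kept.

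Ccnd3 (chromosome 17, 47505051 to 47599691, plus strand), the D-type cyclin most widely retained in differentiating cells, moved the other way in XX cells. Its libraries read 254, 268 and 263 CPM in E14.5 XX, 255, 328 and 309 CPM in E14.5 XY, 308, 325 and 324 CPM in E16.5 XX and 314, 340 and 334 CPM in E16.5 XY. Each group overlapped with its neighbour in the order of means, but the XX libraries of the 2 ages did not overlap. Ccnd3 rose in XX cells by 0.28 on the log2 scale (SE 0.0782, adjusted p = 0.00942). In XY cells the change was 0.15 (95% interval -0.02 to 0.31, adjusted p = 0.201), and the interaction of 0.14 (adjusted p = 0.497) does not separate the sexes. The sex difference was -0.19 (adjusted p = 0.211) at E14.5 and -0.05 (95% interval -0.21 to 0.12, adjusted p = 0.72) at E16.5; without E14.5 XY replicate 1, the lowest XY library, the former was -0.28 with an adjusted p of 0.00856. Bysl overlaps Ccnd3 on the other strand, with at most 10.8% of its counts, and the same limit holds for reads in this overlap.

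Divided by exon length, the D-type cyclins changed in proportion as well as in amount. Their summed level was 136 ± 2.27 and 126 ± 3.07 CPM per kb (SD, n = 3) in E14.5 XX and XY cells and 97.2 ± 2.84 and 124 ± 10.5 CPM per kb in E16.5 XX and XY cells. In XX cells Ccnd2 made up 61.9% ± 0.895 of this sum at E14.5 and 46.3% ± 0.35 at E16.5, while the share of Ccnd3 went from 22% ± 0.513 to 37.4% ± 0.424. In XY cells the Ccnd2 share was 53.3% ± 2.7 and 51.1% ± 2.88, with overlapping libraries, and the Ccnd3 share 26.8% ± 2.96 and 30.4% ± 1.38. Ccnd1 stayed between 16.2% and 19.9% of the sum in the mean of every fetal group. By this length the E16.5 XX cells had the lowest cyclin D sum of the fetal groups and the highest Ccnd3 share. The sizes of these sums and shares depend on the length, which merges the exons of all annotated transcripts.

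**Figure D2:**
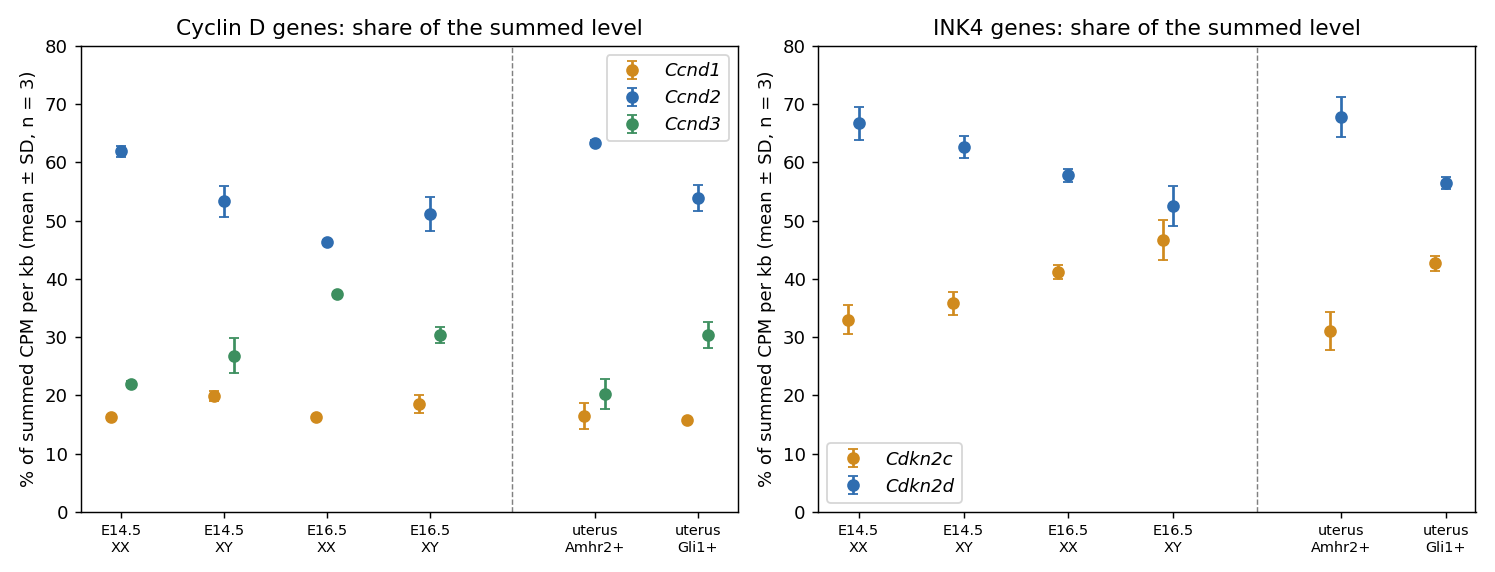
Share of each gene in the summed level of its family (y axis, % of CPM per kb; points are means and bars SD, n = 3) in the 6 groups (x axis), for the D-type cyclins on the left and Cdkn2c and Cdkn2d on the right; the dashed line parts the 2 tables. The Ccnd2 share falls from 61.9% to 46.3% in XX cells, and the Cdkn2c share is highest in E16.5 XY cells, at 46.7%.

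Cdkn1c (chromosome 7, 143458339 to 143461050, minus strand), which encodes p57KIP2, was the mirror image of Ccnd2 among the groups. It measured 244, 254 and 264 CPM in E14.5 XX and 325, 344 and 327 CPM in E14.5 XY libraries. At E16.5 it measured 421, 424 and 407 CPM in XX and 377, 338 and 326 CPM in XY libraries. The XX libraries were the lowest at E14.5 and the highest at E16.5, without overlap between the sexes, and the XY libraries of both ages overlapped. The XX level was lower than the XY level at E14.5 (log2 fold change -0.38, SE 0.0639, adjusted p = 0.00172) and higher by 0.27 at E16.5 (SE 0.0637, adjusted p = 0.00538). With age Cdkn1c rose 1.64-fold in XX cells (0.72, SE 0.0641, adjusted p = 4.86e-07), while the change in XY cells was 0.06 (95% interval -0.07 to 0.2, adjusted p = 0.512). The interaction was 0.65 (SE 0.0902, adjusted p = 0.000201). These calls remained with any single library left out. An RNA on the other strand overlaps Cdkn1c, with at most 0.0898% of its counts in fetal libraries.

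Set against each other per length, Ccnd2 and Cdkn1c gave ratios of 0.71, 0.68 and 0.634 in E14.5 XX libraries and 0.211, 0.224 and 0.224 in E16.5 XX libraries. The XY libraries lay between these, at 0.43, 0.378 and 0.433 at E14.5 and 0.289, 0.419 and 0.422 at E16.5. The E16.5 XY value of 0.289 belongs to replicate 1, which had the lowest Ccnd2 and the highest Cdkn1c of its group, and the groups of different ages overlapped in XY but not in XX cells. The ratio rests on the same values as the tests above and adds no test of its own.

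**Figure D3:**
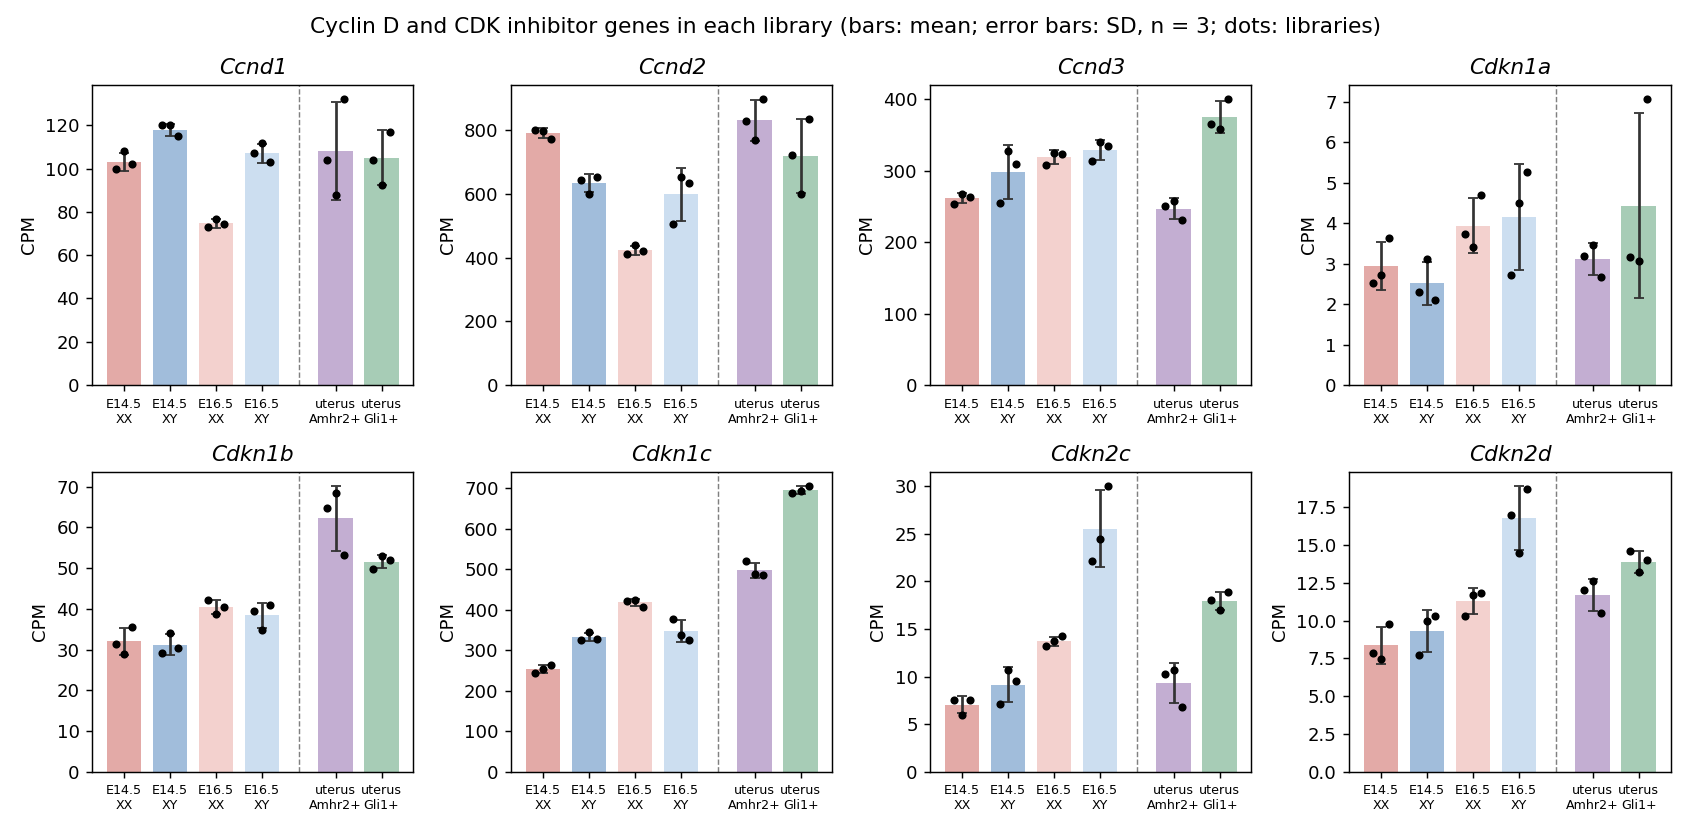
Level of the 8 tested genes (y axis, CPM, each panel with its own scale) in the 6 groups (x axis); dots are libraries, bars means and error bars SD (n = 3), and the dashed line parts the fetal from the uterine table. E14.5 XX libraries are the highest fetal libraries for Ccnd2 (772 to 801 CPM) and the lowest for Cdkn1c (244 to 264 CPM), and E16.5 XX libraries are the reverse.

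Cdkn1b (chromosome 6, 134920401 to 134925513, plus strand), which encodes p27KIP1, rose with age in both sexes. Its libraries read 31.3, 29 and 35.6 CPM in E14.5 XX and 42.1, 38.7 and 40.4 CPM in E16.5 XX, with an edgeR log2 fold change at 0.34 (SE 0.0888, adjusted p = 0.00739). In XY libraries it read 29.2, 34.1 and 30.4 CPM at E14.5 and 39.4, 34.9 and 40.9 CPM at E16.5, which gave a log2 change of 0.3 (SE 0.088, adjusted p = 0.0224). The libraries of the 2 ages did not overlap in either sex. Between the sexes Cdkn1b differed by 0.03 (95% interval -0.16 to 0.22) at E14.5 and 0.07 (95% interval -0.11 to 0.26) at E16.5. The XY rise is near the threshold. At log2 fold changes of 0.24 to 0.3, its adjusted p was 0.0801 and 0.08 without E14.5 XY replicate 1 or 3, 0.0508 and 0.0609 without E16.5 XY replicate 1 or 3, 0.0567 in a fit of only the 6 XY libraries and 0.0627 with library-size scaling alone.

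Cdkn1a (chromosome 17, 29090979 to 29100722, plus strand), which encodes p21CIP1 and is a classical target of p53, was the lowest of the tested genes per length, at 0.706 to 1.17 CPM per kb in the means of the fetal groups. It read 2.51, 2.71 and 3.62 CPM in E14.5 XX, 2.31, 3.12 and 2.09 in E14.5 XY, 3.72, 3.4 and 4.7 in E16.5 XX and 2.71, 4.49 and 5.25 CPM in E16.5 XY libraries. All of these groups overlapped with their neighbours. The rise in XY cells of 0.73 (SE 0.237) had an adjusted p of 0.0356 but was not called in the fit of the 6 XY libraries (0.0758), nor without E14.5 XY replicate 1 or 3 (0.1 and 0.147) or E16.5 XY replicate 2 or 3 (0.087 and 0.143), where the change was 0.53 to 0.73. In XX cells the change was 0.42 (95% interval -0.1 to 0.94, adjusted p = 0.185). The sexes differed by 0.23 (95% interval -0.3 to 0.76) at E14.5 and by -0.08 (95% interval -0.57 to 0.4) at E16.5. Differences within these intervals are not excluded.

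Among Cip/Kip genes Cdkn1c carried nearly the whole of the summed level per length: 94.1% ± 0.487 and 95.6% ± 0.256 in E14.5 XX and XY cells and 95.4% ± 0.265 and 94.6% ± 0.685 in E16.5 XX and XY cells (SD, n = 3). The family sum was 133 ± 5.47, 170 ± 5.87, 215 ± 4.12 and 180 ± 12.9 CPM per kb in the same order of groups. In E14.5 XX cells it was close to the cyclin D sum of 136 CPM per kb, and in E16.5 XX cells the cyclin D sum was 97.2 CPM per kb. Such sums set different genes side by side and depend on the exon lengths used. These are levels of RNA, and in sorted bulk cells fewer expressing cells and less RNA per cell cannot be told apart.

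The INK4 family was represented by Cdkn2c (p18INK4c; chromosome 4, 109660876 to 109667189, minus strand) and Cdkn2d (p19INK4d; chromosome 9, 21288410 to 21291308, minus strand). Cdkn2c measured 7.55, 6.01 and 7.53 CPM in E14.5 XX, 7.15, 10.7 and 9.56 CPM in E14.5 XY, 13.2, 13.7 and 14.2 CPM in E16.5 XX and 22.1, 24.4 and 30 CPM in E16.5 XY libraries. Both E16.5 groups stood above all E14.5 libraries, and the E16.5 XY libraries stood above all others; the sexes overlapped at E14.5. Cdkn2c rose 2.76-fold in XY cells (log2 fold change 1.47, SE 0.141, adjusted p = 1.46e-06) and 1.95-fold in XX cells (0.96, SE 0.148, adjusted p = 0.000112). At E16.5 it was 1.86-fold lower in XX than in XY cells (-0.89, SE 0.137, adjusted p = 0.000147). These 3 calls remained with any library left out. The larger rise in XY cells is not shown to differ from that in XX cells, since the interaction of -0.5 (SE 0.203) had an adjusted p of 0.145. At E14.5 the sex difference was -0.39 (SE 0.15, adjusted p = 0.161), and without E14.5 XY replicate 1 it was -0.52 with an adjusted p of 0.0299.

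Cdkn2d moved in the same direction as Cdkn2c and less far. It measured 7.85, 7.45 and 9.78 CPM in E14.5 XX, 7.7, 9.97 and 10.3 CPM in E14.5 XY, 10.3, 11.7 and 11.8 CPM in E16.5 XX and 17.05, 14.53 and 18.73 CPM in E16.5 XY libraries. The E16.5 XY libraries were again above all others, and the E14.5 groups overlapped. Cdkn2d rose 1.79-fold in XY cells (0.84, SE 0.132, adjusted p = 0.000217) and 1.35-fold in XX cells (0.43, SE 0.137, adjusted p = 0.0206), and was 1.49-fold lower in XX than in XY cells at E16.5 (-0.57, SE 0.131, adjusted p = 0.00391). The rise in XX cells lost its call without E14.5 XX replicate 1 (0.0823) or 2 (0.0927) and without E16.5 XX replicate 2 (0.061) or 3 (0.0572), with log2 fold changes of 0.36 to 0.41. The sex difference at E14.5 was -0.17 (95% interval -0.46 to 0.13, adjusted p = 0.576) and the interaction -0.4 (SE 0.19, adjusted p = 0.213).

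Cdkn2a and Cdkn2b lie next to each other on chromosome 4, at 89274471 to 89294653 and 89306289 to 89311032 on the minus strand, and had 11 counts or fewer in every library. Cdkn2a had 0 counts in each E14.5 XX library, 1, 2 and 2 counts in E14.5 XY, 0, 6 and 1 in E16.5 XX and 3, 0 and 4 in E16.5 XY libraries. Cdkn2b had 2, 1 and 0 counts in E14.5 XX, 3, 7 and 9 in E14.5 XY, 7, 3 and 2 in E16.5 XX and 6, 8 and 11 in E16.5 XY libraries, at most 0.214 CPM. Counts this small allow no fold change, and the E14.5 XX libraries were also among the shallower ones. Within the INK4 sum of 7.95 ± 1.01, 9.47 ± 1.55, 12.4 ± 0.691 and 20.3 ± 2.56 CPM per kb (E14.5 XX and XY, E16.5 XX and XY), the Cdkn2c share went from 33% ± 2.51 to 41.2% ± 1.17 in XX cells and from 35.8% ± 1.93 to 46.7% ± 3.43 in XY cells. Cdkn2d supplied nearly all of the remainder. The INK4 sum was far below the Cip/Kip sum in every group.

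In the neonatal uterus, Ccnd3, Cdkn1c and Cdkn2c were lower in Amhr2+ than in Gli1+ cells, and the other 5 tested genes did not pass the test. Ccnd3 measured 251, 258 and 231 CPM in Amhr2+ and 365, 358 and 400 CPM in Gli1+ libraries (log2 fold change -0.6, SE 0.0708, adjusted p = 0.000675). Cdkn1c measured 519, 488 and 485 CPM against 688, 692 and 705 CPM (log2 fold change -0.48, SE 0.0574, adjusted p = 0.000725). For both genes every Gli1+ library was higher than every Amhr2+ library. Cdkn2c measured 10.3, 10.7 and 6.85 CPM in Amhr2+ and 18, 17 and 18.9 CPM in Gli1+ libraries, again without overlap, a 1.92-fold lower level (-0.94, SE 0.163, adjusted p = 0.00454). The 3 calls remained with any of the 6 libraries left out.

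The other genes were less clear in the uterus. Cdkn1b measured 64.7, 68.5 and 53.2 CPM in Amhr2+ and 49.9, 53 and 52 CPM in Gli1+ libraries; the libraries did not overlap, but the log2 fold change of 0.27 (SE 0.0943) had an adjusted p of 0.0725. Without Amhr2+ replicate 3, the lowest of its group, the adjusted p was 0.00772, and it was 0.0457 with DESeq2, 0.0263 with library-size scaling alone and 0.0272 without a filter on low counts. Cdkn2d measured 12, 12.6 and 10.5 CPM against 14.6, 13.2 and 14 CPM, also without overlap (-0.24, SE 0.107, adjusted p = 0.131). Both genes thus missed the threshold over all genes. How many of all genes part these populations without overlap was not counted.

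Ccnd2 and Ccnd1 overlapped between the uterine populations. Ccnd2 measured 828, 768 and 897 CPM in Amhr2+ and 723, 600 and 834 CPM in Gli1+ libraries (0.21, 95% interval -0.06 to 0.48, adjusted p = 0.23), and Ccnd1 measured 104, 87.9 and 132 CPM against 104, 92.3 and 117 CPM (0.05, 95% interval -0.31 to 0.4, adjusted p = 0.859). Cdkn1a read 3.19, 3.45 and 2.68 CPM in Amhr2+ and 3.16, 3.06 and 7.06 CPM in Gli1+ libraries, of which only Gli1+ replicate 3 stood apart (-0.51, 95% interval -1.26 to 0.25, adjusted p = 0.297). Cdkn2a had 3, 3 and 1 counts in Amhr2+ and 5, 0 and 2 in Gli1+ libraries, and Cdkn2b 5, 3 and 2 against 3, 3 and 2. As in the fetal cells, these neighbours had only a few counts.

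In the uterus the cyclin D sum was 139 ± 10.1 CPM per kb in Amhr2+ and 141 ± 17.6 CPM per kb in Gli1+ cells (SD, n = 3), with overlapping libraries. Its makeup differed: Ccnd2 held 63.4% ± 0.374 of it in Amhr2+ and 53.9% ± 2.25 in Gli1+ cells, and Ccnd3 20.3% ± 2.57 and 30.4% ± 2.19. The Cip/Kip sum was 258 ± 10 against 353 ± 5.13 CPM per kb, of which Cdkn1c held 94.4% ± 0.653 and 96.4% ± 0.172. The Cdkn2c share of the INK4 sum was 31.1% ± 3.26 in Amhr2+ and 42.7% ± 1.29 in Gli1+ cells. The uterine libraries were made with another kit and are not compared in level with the fetal ones. Other cell types moved with this comparison: the 8 epithelial markers summed to 71.6 to 73.7 CPM in Amhr2+ and 31.2 to 43.3 CPM in Gli1+ libraries, and the 6 smooth muscle markers to 1120 to 1770 and 2120 to 2340 CPM. Of the 13 duct mesenchyme genes 7 were lower and 2 higher in Amhr2+ cells, with the summed levels given above. The 10 dissociation genes all had negative log2 fold changes (median -0.97) and summed to 3880 to 5080 CPM in Amhr2+ and 1260 to 12300 CPM in Gli1+ libraries. Their part in the 3 differences was not tested.

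The partners and targets of these genes were read from fixed lists. Of 25 CDK partners and members of the Rb-E2F axis, 13 differed between the sexes at E16.5, 1 higher and 12 lower in XX cells (median log2 fold change -0.28). The genes with the largest changes were Ccne2, the cyclin E gene that follows cyclin D in the cycle (-0.93), E2f7, a repressor of the E2F family (-0.74), Rbl2, a relative of the retinoblastoma gene (-0.67), and Ccna2, the cyclin A gene (-0.49). At E14.5 only E2f3, an activator of the E2F family, differed, at 0.36. Over all genes 27.3% were called at E16.5 and 6.28% at E14.5. From E14.5 to E16.5, 16 of the 25 fell in XX cells, led by E2f3 (-0.75), E2f7 (-0.73), Mycn (-0.65) and Ccnb1 (-0.63), beside 18.6% of all genes lower. In XY cells 5 fell and 1 rose, near the 23.3% of all genes called. Of the kinases that bind cyclin D, Cdk4 was the gene higher in XX cells at E16.5 (0.16), and Cdk6 fell with age in XX cells (-0.28).

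Genes of S phase and of G2 and M phase were lower in XX cells at E16.5 in both contrasts. Against XY cells, 14 of 18 S phase genes were lower (median -0.31), among them Rrm2 (-0.63), Cdc6 (-0.56), Cdc45 (-0.52) and Rrm1 (-0.38), which supply nucleotides or load and start replication forks. Of 18 G2 and M phase genes 15 were lower (median -0.41), among them Nusap1 (-0.59), Bub1 (-0.57), Hmmr (-0.54) and the proliferation marker Mki67 (-0.53). In XX cells 16 of 18 S phase genes fell from E14.5 to E16.5, led by Cdc6 (-0.89) and Mcm3 (-0.71), and 10 of 18 G2 and M phase genes, led by Bub1 (-0.83) and Top2a (-0.68). In XY cells 3 of 18 S phase genes fell, Cdt1 (-0.26), Mcm3 (-0.18) and Mcm2 (-0.17), beside 10.2% of all genes lower. The median of the 18 G2 and M phase genes there was 0.09. By the interaction, 12 S phase and 6 G2 and M phase genes changed their sex difference with age, all downward in XX. The fall of Ccnd1 and Ccnd2 and the rise of Cdkn1c in XX cells thus came in the same libraries as lower levels of these genes. Ccnd3 (0.28), Cdkn1b (0.34), Cdkn2c (0.96) and Cdkn2d (0.43) also rose with age in XX cells. Against XY cells at E16.5, the inhibitor genes Cdkn2c (-0.89) and Cdkn2d (-0.57) were lower in XX cells, as the S, G2 and M phase genes were.

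**Figure D4:**
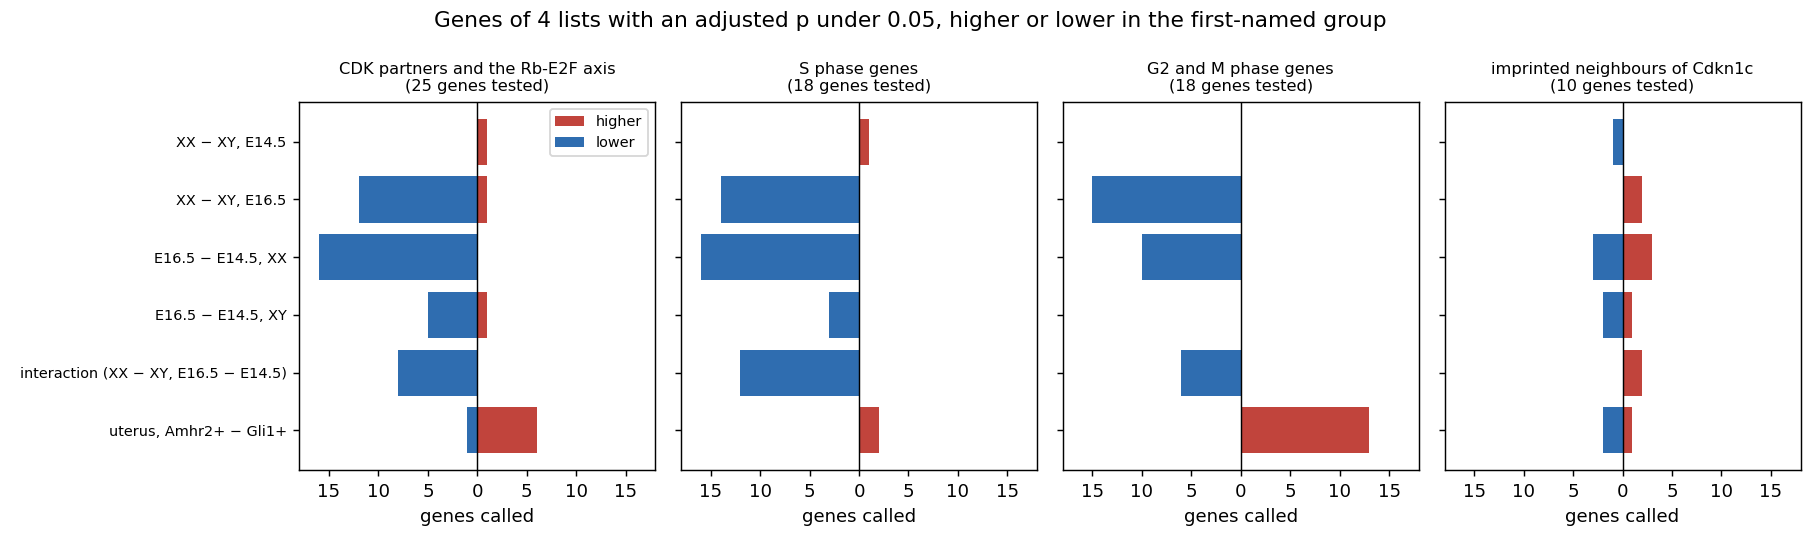
Number of genes called by edgeR (x axis, higher to the right in red, lower to the left in blue, in the first-named group) in 4 lists (panels) and 6 comparisons (y axis). S phase and G2 and M phase genes are lower in E16.5 XX cells (14 and 15 of 18), and 13 of 18 G2 and M phase genes are higher in uterine Amhr2+ cells.

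In the uterus the G2 and M phase list pointed the other way, with 13 of 18 genes higher in Amhr2+ cells (median 0.39, with Kif11 0.55, Bub1 0.55, Cenpe 0.52, Top2a 0.51). Over all genes 10.1% were higher and 13.7% lower. Only 2 of 18 S phase genes were called higher (Prim1 0.38, Rrm1 0.3), near the share of all genes. All 18 had a positive log2 fold change (median 0.25). Of the Rb-E2F axis 6 were higher and 1, Cdk6 (-0.31), was lower, with Mycn (1.41), E2f2 (0.64), Fbxo5 (0.48) and E2f3 (0.47) changing most. These 7 of 25 called genes are near the 23.9% of all genes called. Cdkn1c, Cdkn2c and Ccnd3 were lower in the same Amhr2+ libraries. These counts and those for the fetal cells stand beside the background shares given above, and no list was tested as a set.

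Genes that act on the proteins or on the transcription of the cyclins and inhibitors were read in the same way. Of 15 genes for turnover and activation, Skp2, the ubiquitin ligase subunit that marks p27 and p57 for destruction, fell with age in both sexes (-0.58 in XX, -0.21 in XY) and was lower in XX than in XY cells at E16.5 (-0.27). Dtl, which marks p21 for destruction in S phase, fell by 0.77 on the log2 scale in XX cells. Over the whole list 5 of 15 fell with age in XX cells and 1 in XY cells, and at E16.5 1 was higher and 2 were lower in XX. Over all genes 39.6%, 23.3% and 27.3% were called in these comparisons, so the list as a whole did not stand out. Of 13 tested regulators of the inhibitor genes, 4 were higher and 3 lower in XX cells at E16.5 (27.3% of all genes called). With age 1 rose and 6 fell in XX cells (39.6% of all genes called), and 1 rose and 3 fell in XY cells (23.3%). Tgfb1, a growth factor that induces Cdkn1a and Cdkn2b in epithelial cells, fell with age in both sexes (-1.1 in XX, -0.62 in XY) and was lower in XX cells at E16.5 (-0.78). Ezh2, a silencer of the Cdkn2a locus, fell in XX cells (-0.54), and Bmi1, another silencer of that locus, was higher in XX at E14.5 (0.23) and at E16.5 (0.31). Of 17 tested p53 targets other than Cdkn1a, 4 rose and 2 fell with age in XX cells and 4 rose and 1 fell in XY cells. In XY cells Perp (1.37), Fas (0.63) and Trp53inp1 (0.44) were up and Mdm2 (-0.31) was down. The counts of p53 targets are near the 39.6% and 23.3% of all genes called.

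The imprinted genes next to Cdkn1c on chromosome 7 changed with age in both directions, and few were called between the sexes. For XX against XY, 2 of the 10 had a positive log2 fold change at E14.5 (median -0.19) and 7 at E16.5 (median 0.22). In the interaction 9 were positive (median 0.35). Medians over all genes tested were -0.01, 0.01 and 0.02, and Cdkn1c itself had -0.38, 0.27 and 0.65. Of 10 neighbours, H19 and Igf2, which share an imprinting control region, were both higher in XX cells at E16.5 (0.38 and 0.42), as was Cdkn1c, and both had a positive interaction (0.61 and 0.46). In XX cells with age 3 neighbours rose, Ascl2 (1.39), Cd81 (0.59) and H19 (0.53), and 3 fell, beside 39.6% of all genes called. Kcnq1ot1, the antisense RNA whose promoter lies in the control region of Cdkn1c, fell with age in XX (-0.32) and in XY cells (-0.51) and was lower in XX than in XY cells at E14.5 (-0.26). In the uterus H19 (-0.24) and Igf2 (-0.43) were lower in Amhr2+ cells, as was Cdkn1c, and Phlda2 was higher (1.81) at levels under 1 CPM.

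Smooth muscle genes moved with the fetal comparisons as well. The 6 markers, such as Acta2 and Myh11, summed to 302 to 326 CPM in E14.5 XX, 607 to 888 CPM in E14.5 XY, 465 to 567 CPM in E16.5 XX and 1720 to 2890 CPM in E16.5 XY libraries. Their extremes were in the same groups as those of Cdkn2c, but the middle groups stood in the opposite order. The smooth muscle sum was higher in E14.5 XY than in E16.5 XX libraries, whereas Cdkn2c had means of 9.15 and 13.7 CPM there. At E16.5 5 of the 6 were lower in XX cells, and all 6 rose in XY cells with age. The 7 immune markers, of which 5 were higher in XX cells at E16.5, summed to at most 79.8 CPM in any fetal library. A list of 10 genes that respond to tissue dissociation, such as Fos and Jun, summed to 8680 to 9650 CPM in E14.5 XX, 9430 to 12000 CPM in E14.5 XY, 10100 to 17000 CPM in E16.5 XX and 3870 to 18700 CPM in E16.5 XY libraries. With age in XX cells all 10 were positive (median 0.79) and 3 rose, Hspa1a, Hspa1b and Jun; Hspa1a and Hspa1b, near-identical copies that can share reads, were also higher in XX than in XY cells at E16.5. The part of these cell types and of the dissociation response in the values of the cyclins and inhibitors was not tested.

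The genes most like each member over the 12 fetal libraries were found by Pearson correlation of log2 CPM among 11312 genes with a mean of at least 5 CPM. Cdkn2c was most like Ehbp1l1 (r = 0.989) and Mkx (0.984), and Cdkn2d was most like Fam150b (0.978) and, second, Cdkn2c itself (0.963). Cdkn1c was most like Kera and Atp1b1 (both 0.979), Ccnd2 most like Grik4 (0.981) and Zgrf1 (0.98), and Ccnd1 most like Tgm2 (0.977) and Epha8 (0.976). Ccnd3 was most like Pqbp1 (0.967) and Ppp1r11 (0.957), and Cdkn1b most like Otulin (0.953) and Vsig10l (0.937). The libraries share groups and the best of many genes was taken, so these values describe the order of groups and carry no test.

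Open chromatin was read from a single list of 71040 peaks for all 8 ATAC-seq samples of fetal Gli1+ cells (2 for each sex and age), which holds positions only, so the groups cannot be compared. A peak covered the 5′ end of the gene row for 7 of the 10 genes, beside 65.8% of 17836 tested genes, and lay within 1 kb for 8 of 10 (79% of tested genes) and within 5 kb for 10 of 10 (87.8%). Cdkn2a and Cdkn2b were among the 7, with 0 to 6 and 0 to 11 counts in the fetal libraries. For Cdkn2c the nearest peak ended 2 bp away, for Ccnd3 2602 bp and for Cdkn1a 2630 bp away. RefSeq start sites were matched for 7 of the 10 genes (not for Ccnd1, Ccnd2 and Cdkn1c), and Ccnd3, Cdkn1a, Cdkn2a and Cdkn2c have a pair each: in all 4 genes 1 start lay in a peak and the other did not. How often this holds over all genes with a pair of RefSeq starts was not counted. For Cdkn2a the covered start was the upstream one (position 89294619), while the downstream start (89282192) was 5790 bp from the nearest peak.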

How the data were processed

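Per the labels' protocols, fetal RNA-seq libraries were made with a non-stranded and uterine libraries with a stranded TruSeq kit. The deposited tables hold the authors' raw read counts per gene. The submitters' processing notes name STAR 2.5, featureCounts (Subread 1.5.0-p1) and mm10, and for ATAC-seq Bowtie 1.2, Picard, SAMtools 1.3.1, bedtools 2.24.0 and MACS2 2.1.1; the annotation and the use of strand in counting are not given in the sources used here. No row without a gene name was found; 64 rows of each table repeat a symbol, none of them a gene named here. The deposited peak file lists positions only.

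The genes and lists were chosen with earlier results of these data known. Of the listed partner genes, up to 4 per list and comparison are named, called ones with the largest absolute log2 fold change first; Cdk4, Cdk6 and a few others given for their role were added after their values were seen. Each table was fitted by itself in edgeR 4.0.16 (R 4.3.3; quasi-likelihood test, filterByExpr, TMM, robust, Benjamini-Hochberg over 17858 fetal or 16195 uterine genes, threshold 0.05), without covariates. The fetal fit had 4 group means over 12 libraries. The SE is the log2 fold change divided by the root of F, and intervals are at 95%. CPM use TMM-scaled totals. Levels between genes are divided by GENCODE vM21 exon length, with the exons of all transcripts of a gene merged. Orders and shares between genes depend on this choice. Floors cover counting error only. Alternatives were library-size scaling, no filter, DESeq2 1.42.0, a fit of the compared libraries, a replicate block and leaving out each library. The analysis was tested on simulated data. Same-numbered E16.5 XX and XY libraries deviated together (r = 0.28, 0.11 and 0.4), and differently numbered ones had r of -0.34 to 0.11. The main fit did not pair them. As an alternative, the replicate block changed no call of these genes between the sexes at E16.5. Promoter sequences are from RefSeq, which had entries for 7 of the 10 genes in the table used.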

Additional observations from a re-analysis of the deposited data

Results flagged for a closer look

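The sex difference (XX minus XY) changed between E14.5 and E16.5 in 3 genes, by the interaction term of edgeR at an adjusted p under 0.05. For Ccnd2 the change was -0.82 on the log2 scale, from XX libraries above to XX libraries below the XY libraries. For Cdkn1c it was 0.65, from XX libraries below to XX libraries above the XY libraries. For Ccnd1 it was -0.33, with XX libraries below XY libraries at both ages.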

How the results depend on the processing

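Of the 24 gene results called among the 48 tested, 19 were called under every alternative, and of the 24 not called, 18 were never called. No called result changed sign; 5 results that were not called did when 1 library was left out (Cdkn1b between the sexes at E14.5 and in the interaction, Ccnd2 with age in XY, Cdkn1a between the sexes at E16.5 and Ccnd1 in the uterus). Left-out libraries moved the number of called genes from 2 to between 1 and 4 (sexes at E14.5), from 7 to between 6 and 7 (age in XX), from 4 to between 2 and 4 (age in XY), from 3 to between 2 and 3 (interaction) and from 3 to between 3 and 4 (uterus); the E16.5 sex comparison gave 5 under every alternative. The fit of only the 6 XY libraries called 2 genes with age in place of 4, which has fewer residual degrees of freedom. Uterine replicate numbers share only a number (r = 0, 0.22 and 0.24 for same-numbered libraries): with the replicate block 5 genes were called in the uterus in place of 3, adding Cdkn1b (0.0407) and Ccnd2 (0.0413), and at E14.5 the block called 3 genes between the sexes, adding Ccnd1 (0.0431). With the block in XY cells 3 genes were called with age, Cdkn1b being at 0.0503. Over all genes, the 1121 calls at E14.5 became 578, 660 and 653 without E14.5 XX replicate 1, 2 or 3 and 686 and 553 without E14.5 XY replicate 2 or 3. The 1790 interaction calls became 2687 without E16.5 XY replicate 1, and the 3866 uterine calls 1949 without Amhr2+ replicate 1 and 2521 without Gli1+ replicate 1. The median of all genes moved by at most 0.08 with library-size scaling. Depth limits Cdkn2a, Cdkn2b and, in part, Cdkn1a.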
